A study of Mus musculus with 32 samples.

Results

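The liver X receptors and genes grouped with them under the name of receptor targets and sterol exporters were followed in mouse livers. The mice differed in diet and in exposure to E171, the food-grade titanium dioxide used as a white colouring. Whether the receptors act on each of these genes was not tested. The group holds 10 genes, which are the receptors Nr1h2 (LXRβ) and Nr1h3 (LXRα), the exporters Abca1, Abcg1, Abcg5 and Abcg8, and Lpcat3, Mylip, Pltp and Lcat. They were chosen by name, as every probe other than control spots whose gene name in the scanner files is one of the 10, which gave 15 of 56605 probes. All 10 genes passed the filter on dim probes and stand among 23663 tested genes. The 1 probe that did not pass is a dim Nr1h2 probe. The main probe of each gene was well above background on all 32 arrays.

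Liver RNA of 32 male C57BL/6J mice of the F1 generation was measured on one-colour Agilent arrays, 1 array per mouse and 8 mice per group. The groups were Western diet with E171, Western diet control, normal diet with E171 and normal diet control. E171 was mixed into the pellets at a daily target dose of 10 mg/kg body weight, and F0 females ate it from 8 weeks of age for 40 days before mating. Their F1 pups stayed on the pellets of the mother, and the control mice of both diets ate pellets without E171. All mice were killed at 21 weeks, and those on the Western diet, which the treatment protocol calls a high-fat diet, changed to it at 5 weeks of age for 16 weeks. The question stated in the labels is whether the diet aggravates the response to E171. Litters are not given, so littermates may be counted as independent mice.

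LXRα and LXRβ are nuclear receptors that bind oxysterols, the oxidised forms of cholesterol, and act on DNA as partners of the retinoid X receptor. When a cell holds much sterol they raise genes that move cholesterol out of it. The routes include secretion into bile by hepatocytes and loading onto HDL, for example by macrophages. LXRα is abundant in liver and macrophages, and LXRβ is found in most tissues.

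The regions just before the transcription start of Abca1, Abcg5 and Abcg8 are shown because that of Abca1 holds a match to the binding element of the receptors and because Abcg5 and Abcg8, which varied together from mouse to mouse, are transcribed away from each other out of 1 shared region. Each is the 250 bases before the start in RefSeq (build GRCm38.p6), written 5′ to 3′ on the strand of the gene. Abca1 lies at chr4:53159896-53160145 on the minus strand, Abcg5 at chr17:84683012-84683261 on the minus strand and Abcg8 at chr17:84682871-84683120 on the plus strand. Capitals mark the fixed bases of the motifs described after the sequences.
Abca1: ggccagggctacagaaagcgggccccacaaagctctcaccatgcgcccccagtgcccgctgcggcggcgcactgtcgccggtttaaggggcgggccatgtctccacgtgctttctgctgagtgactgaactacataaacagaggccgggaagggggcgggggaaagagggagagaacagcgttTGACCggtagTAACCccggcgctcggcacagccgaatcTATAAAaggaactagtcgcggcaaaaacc
Abcg5: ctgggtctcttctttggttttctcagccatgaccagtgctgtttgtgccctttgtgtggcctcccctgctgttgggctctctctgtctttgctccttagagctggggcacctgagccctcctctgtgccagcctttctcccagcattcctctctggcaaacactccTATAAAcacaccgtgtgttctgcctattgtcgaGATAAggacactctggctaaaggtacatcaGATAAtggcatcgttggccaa
Abcg8: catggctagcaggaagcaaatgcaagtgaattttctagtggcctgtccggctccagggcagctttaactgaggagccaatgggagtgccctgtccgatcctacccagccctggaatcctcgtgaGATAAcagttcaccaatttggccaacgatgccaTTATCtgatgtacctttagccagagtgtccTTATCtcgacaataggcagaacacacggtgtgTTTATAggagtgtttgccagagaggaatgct
The windows of Abcg5 and Abcg8 share 109 bases, and their start sites lie 110 bases apart. A search on both strands used an LXR element (half-site GGTCA, any 5 bases, half-site GGTCA) and the same with GGTTA as either the first or the last half-site, the single half-site AGGTCA, the GATA-type motif GATAA and the TATA box TATAAA. The form with GGTTA first was found in Abca1, on the opposite strand, from 67 to 53 bases before the start, and in 0.0457% of all 32841 windows of this length. The other 10 of 11 windows held none of the 3 forms of the element. All 11 lacked AGGTCA, which 14% of all windows hold. The 11 windows belong to 9 of the 10 genes, and Abcg1 had none to search. The shared stretch of Abcg5 and Abcg8 holds GATAA at 2 places, 51 to 47 and 21 to 17 bases before the start of Abcg5, and Abcg8 has 1 more beyond it. GATAA occurs in 22.6% of all windows and TATAAA, seen before Abca1, Abcg5 and Mylip and, as the same site read on the opposite strand, before Abcg8, in 12.4%. These are matches of letters in a short window, and elements elsewhere were not searched.

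Levels are log2 of the processed intensity minus the 75th percentile of the same array, so that a gene at 0 lies at that percentile. Arrays had a 75th percentile of 175 to 342 intensity units, 32164 to 37261 probes well above background, no saturated spots and a correlation of at least 0.979 with every array of their own group. The arrays lay on 4 slides with 2 mice of every group on each. Differences are means of 8 mice against 8 with the standard error (SE) of limma's moderated test, fitted over all 32 arrays, and p-values are two-sided and adjusted over all genes by the Benjamini-Hochberg method with a threshold of 0.05. Over all genes the median difference between diets was -0.10 both in controls and in E171 mice. It was -0.07 and -0.08 with quantile normalization, -0.02 and -0.04 with the deposited table, and -0.12 in controls with normexp background correction.

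On the Western diet the exporters Abcg1, Abcg5 and Abcg8 and the acyltransferase Lpcat3 were higher, Lcat and both receptors were lower, Mylip passed in E171 mice and not in controls, and Abca1 and Pltp did not pass the test. In controls 7 of the 10 genes passed, 4 higher and 3 lower, where 47.3% of all tested genes passed, 18.5% higher and 28.7% lower. Over all genes in controls 4386 of 11189 calls were higher, and 54.5% of the calls made with the deposited table. In E171 mice 8 passed, 5 higher and 3 lower, against 53.2% of all genes, 22.2% higher and 31% lower. The groups did not overlap for 3 genes in E171 mice, Abcg1, Abcg5 and Lpcat3, against 18% of all genes, and for 0 in controls, against 9.96%. The median difference of the 10 genes was 0.10 in controls and 0.24 in E171 mice. The rise of the first 4 genes and the fall of Lcat passed in each of the 11 alternatives run in controls and the 9 run in E171 mice, whereas the fall of the receptors depended on the scaling. In whole liver, more RNA per cell and more cells of a type that holds the RNA cannot be told apart.

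**Figure D1:**
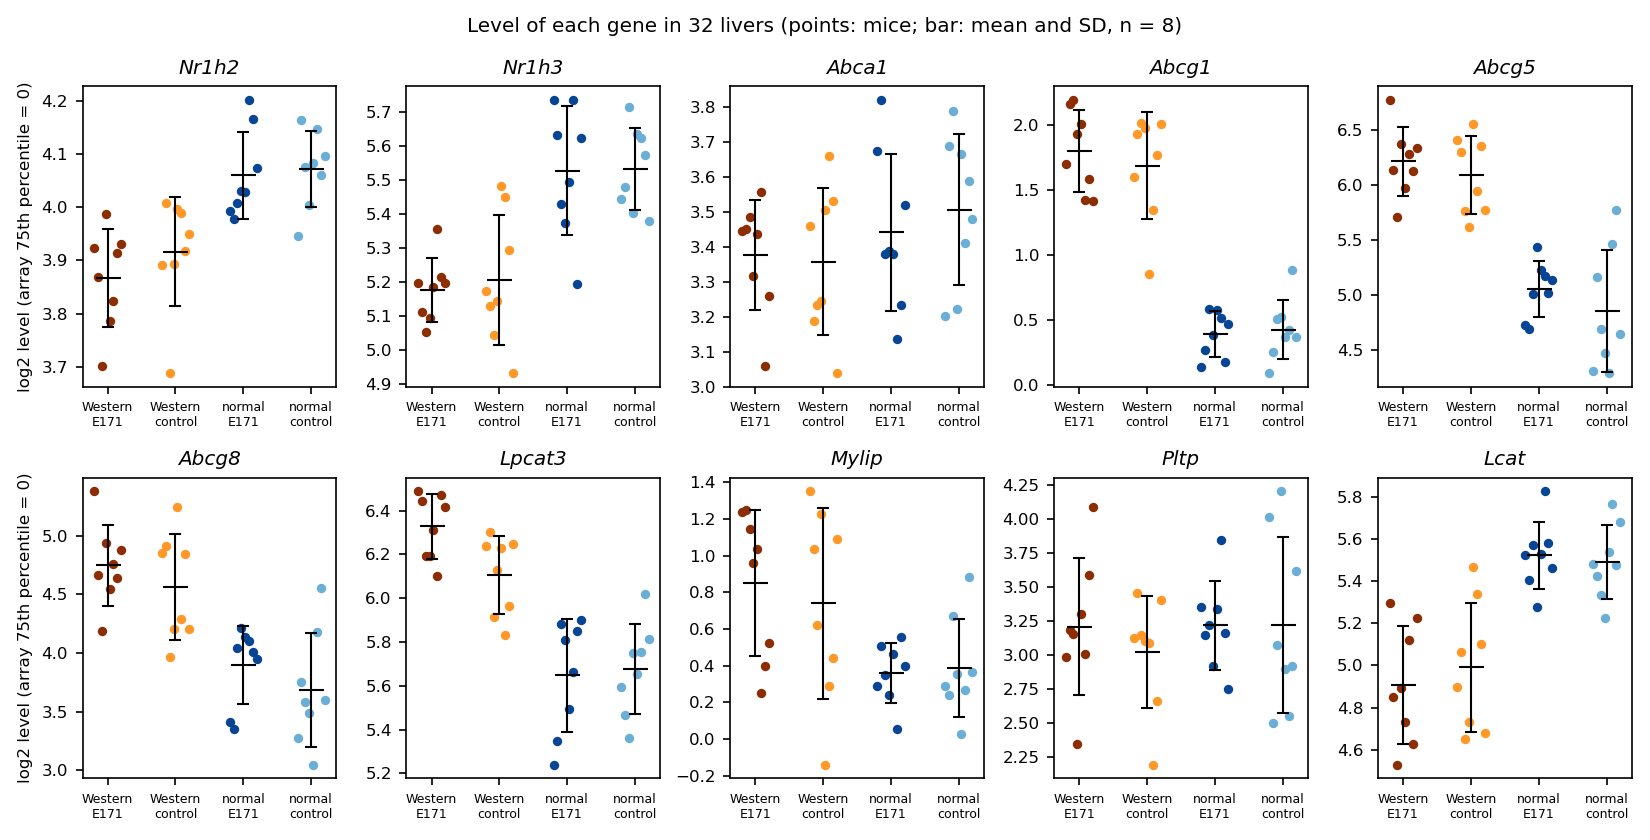
Level of each of the 10 genes (log2 of the intensity minus the 75th percentile of the array) in every mouse, with the mean and SD of each group of 8. Abcg1 lies between 0.85 and 2.19 on the Western diet against 0.09 and 0.88 on the normal diet, while the Abca1 groups overlap over most of their range.

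Of the receptors, Nr1h3 encodes LXRα, and its probe lies on chromosome 2 at 91024250 to 91024309 (mm9, minus strand). Its log2 level was 4.93, 5.16 and 5.48 (lowest, median and highest) in Western-diet controls, against 5.38, 5.53 and 5.71 in normal-diet controls. Among E171 mice the values were 5.05, 5.19 and 5.36 on the Western diet, against 5.19, 5.56 and 5.74 on the normal diet. The groups overlapped, with 6 of 8 Western-diet controls and 4 of 8 Western-diet E171 mice below every mouse of their normal-diet group. The difference was -0.33 (SE 0.08, adjusted p = 0.00121 in limma) in controls and -0.35 (adjusted p = 0.000465) in E171 mice. Its other probe gave -0.34 and -0.43. In controls the call was lost with quantile normalization (-0.17, adjusted p = 0.0557) and with the deposited value table (-0.15, adjusted p = 0.0518), and in E171 mice the difference shrank to -0.17 and -0.18 but passed.

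Nr1h2 encodes LXRβ, and its main probe lies on chromosome 7 at 51805013 to 51805072 (mm9, minus strand). It had log2 levels of 3.69, 3.93 and 4.01 in Western-diet controls, against 3.95, 4.08 and 4.17 in normal-diet controls. In E171 mice the levels were 3.70, 3.89 and 3.99 on the Western diet, against 3.98, 4.03 and 4.2 on the normal diet. It had the narrowest spread of the 10 genes, with an SD of 0.07 to 0.10 per group, and the groups overlapped in both comparisons. The difference was -0.16 (SE 0.05, adjusted p = 0.012 in limma) in controls and -0.19 (adjusted p = 0.002) in E171 mice, that is -0.06 beyond the median of all genes in controls. Quantile normalization gave -0.06 (adjusted p = 0.267) and -0.09 (adjusted p = 0.0987), so that neither call held. The deposited table gave -0.03 (adjusted p = 0.592) in controls and -0.09 (adjusted p = 0.0956) in E171 mice. A dimmer probe gave -0.15 (adjusted p over all probes 0.151) in controls and -0.31 (0.00455) in E171 mice.

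Abca1 and Abcg1 carry cholesterol out of cells onto HDL precursors and HDL, and only Abcg1 rose. Abca1 loads lipid-poor apolipoprotein A-I, and its probe lies on chromosome 4 at 53043944 to 53044003 (mm9, minus strand). Its log2 level was 3.04, 3.35 and 3.66 in Western-diet controls, against 3.20, 3.54 and 3.79 in normal-diet controls. The E171 mice had 3.06, 3.44 and 3.56 on the Western diet, against 3.14, 3.38 and 3.82 on the normal diet. The groups overlapped over most of their range. The difference was -0.15 (95% confidence interval -0.36 to 0.06, adjusted p = 0.231 in limma) in controls and -0.07 (-0.27 to 0.14, adjusted p = 0.60) in E171 mice, so that the upper limits allow a rise of at most 1.04-fold and 1.1-fold at this scaling. Its other probe gave -0.13 and -0.03, and in E171 mice the sign turned with quantile normalization (0.01) and the deposited table (0.05).

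Abcg1 passes cholesterol to mature HDL and is prominent in macrophages. Its probe lies on chromosome 17 at 31252580 to 31252639 (mm9, plus strand). The log2 level was 0.85, 1.85 and 2.01 in Western-diet controls, against 0.09, 0.39 and 0.88 in normal-diet controls. In E171 mice it was 1.41, 1.81 and 2.19 on the Western diet, against 0.14, 0.43 and 0.58 on the normal diet. All 8 Western-diet E171 mice lay above all normal-diet E171 mice, and 7 of 8 Western-diet controls lay above all normal-diet controls. The exception was Western-diet control mouse 5 at 0.85, which lay just under normal-diet control mouse 7 at 0.88. Abcg1 was 2.40-fold higher in controls (log2 difference 1.26, SE 0.14, adjusted p = 3.84e-08 in limma) and 2.66-fold higher in E171 mice (1.41, adjusted p = 3.59e-09). It was higher on 4 of 4 slides in both comparisons. In controls the difference was 1.22, 1.66, 1.55 and 0.62 on the single slides, the last holding both of these mice. Without Western-diet control mouse 5 the difference was 1.38, and without normal-diet control mouse 7 it was 1.33.

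Markers of macrophages moved with Abcg1. Among all genes 18.5% were higher on the Western diet and 28.7% lower in controls, and 22.2% and 31% in E171 mice. Of 15 Kupffer cell and macrophage markers, 10 were higher and 1 lower on the Western diet in controls, and likewise in E171 mice. Their summed level (linear, with the 75th percentile of an array as 1) was 102 to 273 in Western-diet controls, against 57.4 to 189 in normal-diet controls, and 139 to 319 in Western-diet E171 mice, against 77.8 to 148 in normal-diet E171 mice. Lyz2 (1.51), Cd68 (1.44) and C1qb (1.25) rose, while the resident Kupffer cell markers Clec4f (0.10, adjusted p = 0.658 in limma) and Timd4 (-0.51, adjusted p = 0.146) did not pass and Cd163 fell (-1.76). Of 10 markers of lipid-associated macrophages 8 rose and 1 fell in controls, among them Trem2 (3.98). For Gpnmb, 8 of 8 Western-diet control arrays and 0 of 8 normal-diet control arrays were well above background. The summed level of that list, 51.9 to 184 in Western-diet controls against 61.7 to 300 in normal-diet controls, did not follow these counts, and its brightest member Fabp5 fell (-2.49). The mean log2 level of the same list did not overlap between diets. It was 0.82 to 3.07 in Western-diet controls, against -0.60 to 0.19 in normal-diet controls. Among E171 mice it was 1.63 to 3.03 on the Western diet, against -0.59 to -0.18 on the normal diet. Western-diet control mouse 5, with the lowest Abcg1 of its group, also had the lowest Kupffer cell sum, 102, the lowest sum of lipid-associated macrophage markers, 51.9, and the lowest Mylip, while its Nr1h3, Abcg5, Abcg8 and Lcat were the highest of the group. The part of these cells in the rise of Abcg1 was not tested.

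Abcg5 and Abcg8 form the pump that secretes cholesterol and plant sterols into bile, and both rose. The Abcg5 probe lies on chromosome 17 at 85057604 to 85057663 (mm9, minus strand) and the Abcg8 probe on the same chromosome at 85099609 to 85099668 (plus strand). The Abcg5 log2 level was 5.61, 6.12 and 6.56 in Western-diet controls, against 4.29, 4.67 and 5.77 in normal-diet controls. Among E171 mice the values were 5.71, 6.21 and 6.78 on the Western diet, against 4.68, 5.08 and 5.44 on the normal diet. The E171 groups did not overlap, and in controls 6 of 8 Western-diet mice lay above all normal-diet mice. The difference was 1.24 (SE 0.19, 2.36-fold, adjusted p = 3.12e-06 in limma) in controls and 1.17 (2.24-fold, adjusted p = 6.16e-06) in E171 mice.

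The Abcg8 log2 level was 3.97, 4.57 and 5.24 in Western-diet controls, against 3.05, 3.59 and 4.55 in normal-diet controls. The E171 mice had 4.19, 4.71 and 5.38 on the Western diet, against 3.35, 4.02 and 4.21 on the normal diet. Here 4 of 8 Western-diet controls and 7 of 8 Western-diet E171 mice lay above every mouse of their normal-diet group. The difference was 0.88 (SE 0.20, 1.84-fold, adjusted p = 0.00056 in limma) in controls and 0.85 (1.80-fold, adjusted p = 0.000646) in E171 mice. Normal-diet control mouse 7 had the highest level of Abcg1, Abcg5, Abcg8, Lpcat3 and Mylip in its group. Without it the control difference was 1.37 for Abcg5 and 1.0 for Abcg8.

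Lpcat3 puts polyunsaturated fatty acids into membrane phospholipids, and Mylip is a ubiquitin ligase that marks lipoprotein receptors for degradation. The Lpcat3 probe lies on chromosome 6 at 124654029 to 124654088 (mm9, plus strand). Its log2 level was 5.83, 6.18 and 6.30 in Western-diet controls, against 5.36, 5.70 and 6.02 in normal-diet controls. In E171 mice it was 6.10, 6.37 and 6.49 on the Western diet, against 5.24, 5.74 and 5.90 on the normal diet. The control groups overlapped and the E171 groups did not. The difference was 0.43 (SE 0.10, 1.35-fold, adjusted p = 0.000835 in limma) in controls and 0.68 (1.60-fold, adjusted p = 1.85e-06) in E171 mice, and its other probe gave 0.42 and 0.64. With the deposited table it was 0.65 in controls and 0.88 in E171 mice.

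The Mylip probe lies on chromosome 13 at 45506979 to 45507038 (mm9, plus strand). Its log2 level was -0.14, 0.83 and 1.35 in Western-diet controls, against 0.03, 0.32 and 0.88 in normal-diet controls. Among E171 mice the values were 0.25, 1.0 and 1.25 on the Western diet, against 0.05, 0.37 and 0.56 on the normal diet. Western-diet mice spread over a wide range, with an SD of 0.52 in controls and 0.40 in E171 mice, against 0.27 and 0.16 on the normal diet, and the groups overlapped. Mylip passed in E171 mice (0.49, SE 0.18, adjusted p = 0.0197 in limma) and not in controls (0.35, 95% confidence interval -0.01 to 0.71, adjusted p = 0.101). On the slide that held both Western-diet control mouse 5 and normal-diet control mouse 7, the control difference of Mylip was -0.63. On the other slides it was 0.54, 0.76 and 0.73. In controls it passed without Western-diet mouse 5 (0.48, adjusted p = 0.0155) and with the deposited table (0.40, adjusted p = 0.0493).

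Pltp, which transfers phospholipids between lipoproteins in plasma, and Lcat, which esterifies the cholesterol of HDL, are secreted proteins. The Pltp probe lies on chromosome 2 at 164665022 to 164665081 (mm9, minus strand). Its log2 level was 2.19, 3.12 and 3.46 in Western-diet controls, against 2.50, 3.00 and 4.21 in normal-diet controls. The E171 mice had 2.35, 3.17 and 4.09 on the Western diet, against 2.75, 3.19 and 3.85 on the normal diet. The groups overlapped, and the difference was -0.20 (95% confidence interval -0.68 to 0.28, adjusted p = 0.50 in limma) in controls and -0.01 (-0.49 to 0.47, adjusted p = 0.978) in E171 mice. These intervals are the widest of the 10 genes. The sign in E171 mice turned under 3 scalings, to at most 0.09.

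The Lcat probe lies on chromosome 8 at 108463523 to 108463582 (mm9, minus strand). Its log2 level was 4.65, 4.98 and 5.47 in Western-diet controls, against 5.22, 5.48 and 5.77 in normal-diet controls. In E171 mice it was 4.53, 4.87 and 5.29 on the Western diet, against 5.28, 5.53 and 5.83 on the normal diet. In controls 6 of 8 Western-diet mice lay below all normal-diet mice, and in E171 mice 7 of 8. Lcat fell by 0.50 (SE 0.12, adjusted p = 0.000912 in limma) in controls and by 0.61 (adjusted p = 7.14e-05) in E171 mice, to 0.707-fold and 0.653-fold of the normal-diet level. With the deposited table the control difference was -0.33 (adjusted p = 0.00892). On the slide of Western-diet control mouse 5 and normal-diet control mouse 7 the control difference of Lcat was -0.12, against -0.51, -0.68 and -0.69 on the others. Hepatocyte markers moved with Lcat, with 10 of 11 lower and 0 higher in controls, among them Alb (-0.28), where 28.7% of all genes were lower. This count depended on the scaling: 5 were lower with quantile normalization and 5 with the deposited table, and Alb (-0.01, adjusted p = 0.751 with quantile normalization), Ahsg, Tat, Serpina1a and Ttr lost their calls, the last 2 with the sign turned. The part of the cell types in the fall of Lcat was not tested.

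**Figure D2:**
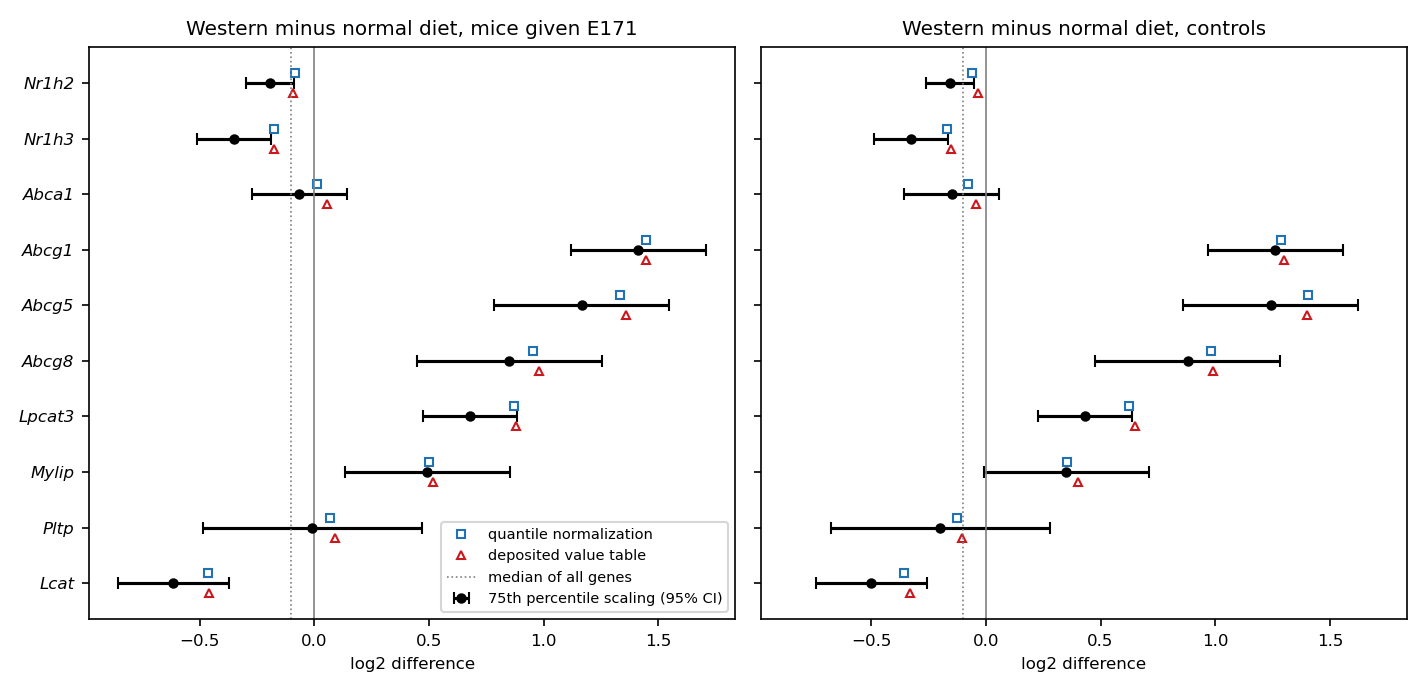
Difference between Western and normal diet (log2) for each gene in E171 mice and in controls, with the 95% confidence interval of the limma fit (black), the value with quantile normalization (squares) and that of the deposited table (triangles); the dotted line is the median of all genes. Abcg1, Abcg5, Abcg8 and Lpcat3 lie to the right of 0 and Lcat to the left under every scaling, while the receptors move toward 0 with the other scalings.

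No gene of the group passed the test for E171 on either diet. On the Western diet 0 of 10 passed in limma, where 0.38% of all genes did, and 1, Lpcat3, had an unadjusted p under 0.05. Its difference was 0.22 (SE 0.10, 95% confidence interval 0.02 to 0.43, unadjusted p = 0.0356, adjusted p = 0.379), with 5 of 8 Western-diet E171 mice above all Western-diet controls and a higher mean on 4 of 4 slides. Its other probe gave 0.19 (adjusted p over all probes 0.50). The differences of the other genes on this diet ran from -0.08 for Lcat to 0.19 for Pltp. On the normal diet 0 of 10 passed, 0 had an unadjusted p under 0.05, and 0% of all genes passed. There the values ran from -0.07 for Abca1 to 0.21 for Abcg8.

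The intervals show what size of response to E171 these groups of 8 could miss. For Abcg5 the 95% confidence interval was -0.25 to 0.51 (0.838-fold to 1.42-fold) on the Western diet and -0.18 to 0.58 (0.883-fold to 1.5-fold) on the normal diet. For Abcg1 it was -0.18 to 0.41 and -0.33 to 0.26, and for Nr1h3 -0.19 to 0.13 and -0.17 to 0.16. Averaged over both diets 0 of 10 passed and 0 had an unadjusted p under 0.05, against 0.368% of all genes that passed. Abcg8 had the highest such mean difference, 0.20 (95% confidence interval -0.09 to 0.48).

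**Figure D3:**
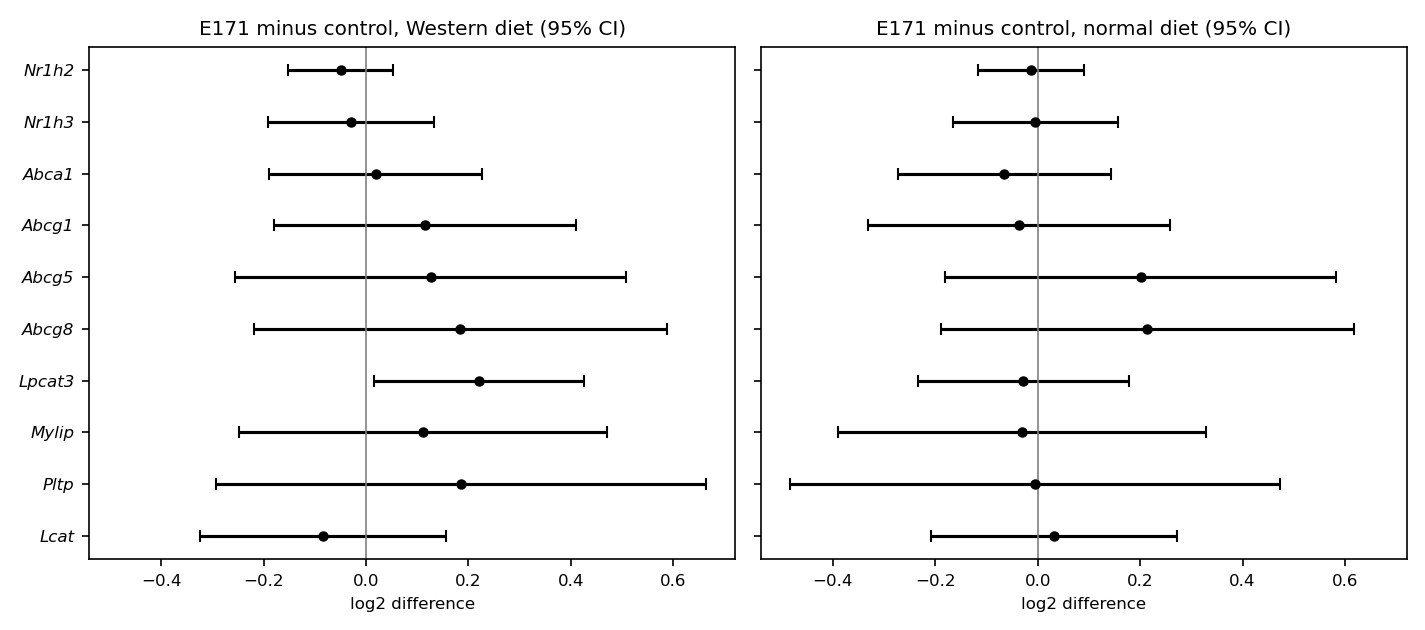
Difference between E171 and control mice (log2) for each gene on the Western and on the normal diet, with the 95% confidence interval of the limma fit. All intervals include 0 except that of Lpcat3 on the Western diet, 0.02 to 0.43, whose adjusted p is 0.379.

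The effect of the diet was compared between E171 mice and controls with an interaction term, the Western-diet difference in E171 mice minus that in controls. It passed for 0 of 10 genes, with 0 under an unadjusted p of 0.05 and 0% of all genes passing. Lpcat3 came first with 0.25 (SE 0.14, 95% confidence interval -0.04 to 0.54, unadjusted p = 0.09, adjusted p = 0.998). For Mylip, which passed in E171 mice and not in controls, the interaction was 0.14 (95% confidence interval -0.37 to 0.65). For Abcg1 it was 0.15 and for Abcg5 -0.07.

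From mouse to mouse, the 2 partners of the biliary pump went together more closely than any other pair in the group. Correlations were computed over 32 mice on the deviation of each mouse from the mean of its group, for 45 pairs with 100000 permutations, and adjusted over the pairs. Where 2 mice were left out, they were those farthest from the median in the first-named gene of the pair. Mice far out only in the other gene stayed in. Abcg5 and Abcg8 had Pearson's r 0.948 and Spearman's rho 0.952 (permutation p = 1e-05 for both, the smallest these permutations can give, adjusted p = 0.00045), and r 0.936 without the 2 mice farthest from the median. Within groups r was 0.994 in Western-diet E171 mice, 0.953 in Western-diet controls, 0.924 in normal-diet E171 mice and 0.969 in normal-diet controls. Each was the gene most correlated with the other among 17775 named genes.

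In all, 15 of the 45 pairs passed with r and 14 with rho, and the share among pairs of other genes was not computed. Of the 15 pairs, 6 passed both with quantile normalization and with the deposited table. Beside Abcg5 and Abcg8 these were Abcg1 with Mylip (r 0.692, rho 0.605), Abca1 with Pltp (r -0.596, rho -0.604), Abcg1 with Lcat (r -0.581, rho -0.495), Abca1 with Lpcat3 (r -0.497, rho -0.485) and Nr1h3 with Mylip (r -0.496, rho -0.398). Their permutation p-values of r were 0.00031, 0.00056, 0.00314, 0.00851 and 0.00532 (adjusted p from 0.00697 to 0.0274), and without the 2 mice farthest from the median r was 0.566, -0.617, -0.429, -0.425 and -0.402. With rho the last pair did not pass (adjusted p = 0.0816). Within groups some of these signs varied. Abcg1 with Mylip had r 0.823 in Western-diet E171 mice, 0.734 in Western-diet controls, -0.294 in normal-diet E171 mice and 0.757 in normal-diet controls. Abcg1 with Lcat had -0.631, -0.872, 0.242 and -0.151 in the same order of groups, and Nr1h3 with Mylip -0.739, -0.759, -0.505 and 0.211. Abca1 was negative in all 4 groups with Pltp (-0.401, -0.843, -0.399 and -0.73) and with Lpcat3 (-0.506, -0.502, -0.615 and -0.349). Nr1h3 and Abca1 had r 0.563 and passed with the deposited table (0.495) but not with quantile normalization (0.465, adjusted p = 0.0694). Abcg1 and Abcg5, which both rose, had opposite signs of r by diet, -0.53 in Western-diet E171 mice and -0.62 in Western-diet controls, against 0.57 in normal-diet E171 mice and 0.61 in normal-diet controls. None of these 4 passed (exact permutation test, adjusted over 180 tests of pairs within groups, adjusted p from 0.398 to 0.507, n = 8 each). Without the 2 mice farthest from the median the last became -0.29, and the difference between diets was not tested. Apart from Abcg5 and Abcg8, many genes outside the group were closer to a member than its partner in the group. Among 17775 named genes, ordered from the highest r, Mylip ranked 426 for Abcg1 and Abcg1 ranked 176 for Mylip. Abca1 ranked 1204 for Nr1h3. The passing pairs are therefore not read as particular to this group.

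**Figure D4:**
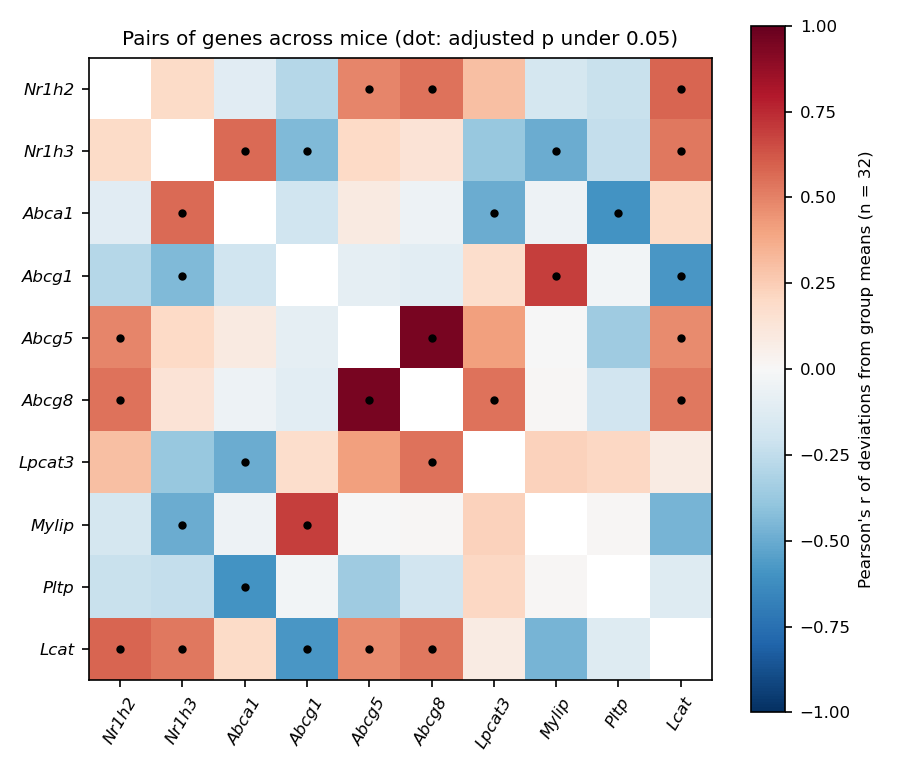
Pearson's r of the deviations from the group means for every pair of the 10 genes over 32 mice, from -1 (blue) to 1 (red), with a dot where the adjusted permutation p is under 0.05. The strongest pair is Abcg5 with Abcg8 at 0.948, and 15 of 45 pairs carry a dot.

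The same deviations were set against the mean log2 level of 10 lists of cell type markers, which gave 100 correlations, of which 24 passed. The share that passes for genes outside the group was not computed. The lists of lipid-associated macrophages and of cholangiocytes have the marker Spp1 in common. Abcg1 went with several lists, the lipid-associated macrophage markers (r 0.731, rho 0.596, permutation p = 0.00022, adjusted p = 0.00275), the Kupffer cell and macrophage markers (r 0.651, rho 0.67, permutation p = 0.0001, adjusted p = 0.00143), the stellate cell and fibroblast markers (r 0.60) and the endothelial markers (r 0.575), and against the hepatocyte markers (r -0.667). All but the last passed with quantile normalization as well (r 0.754, 0.67, 0.631 and 0.612, against -0.44 for hepatocytes). Mylip went with the endothelial markers (r 0.867, rho 0.893, permutation p = 1e-05, adjusted p = 0.000333), with r of 0.805 in Western-diet E171 mice, 0.909 in Western-diet controls, 0.881 in normal-diet E171 mice and 0.854 in normal-diet controls. Of those 10 endothelial markers 2 were higher and 2 lower on the Western diet in controls, where 18.5% of all genes were higher and 28.7% lower. Lcat was lower in mice with high stellate cell and fibroblast markers (r -0.851, rho -0.769, permutation p = 1e-05), and about as much so with high markers of lipid-associated macrophages (r -0.82, rho -0.72) and cholangiocytes (r -0.761, rho -0.694), and these 3 passed with quantile normalization as well (r -0.772, -0.769 and -0.702). The 2 mice farthest from the median in the mean of the marker list were also left out. Then r was 0.573 for Abcg1 with Kupffer cell markers and 0.572 with those of lipid-associated macrophages. It was 0.855 for Mylip with endothelial markers and -0.808 for Lcat with stellate markers. With quantile normalization Mylip had r 0.862 with the endothelial markers and also passed with the stellate markers (r 0.601). At that scaling the endothelial markers also passed with Lpcat3 (r 0.517) and, inversely, with Nr1h3 (r -0.541). Of the stellate markers 7 of 10 rose and 0 fell in controls, with a summed level of 106 to 235 in Western-diet controls, against 80.8 to 118 in normal-diet controls. For Nr1h3 the correlation with hepatocyte markers, 0.546, was 0.23 with quantile normalization.

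**Figure D5:**
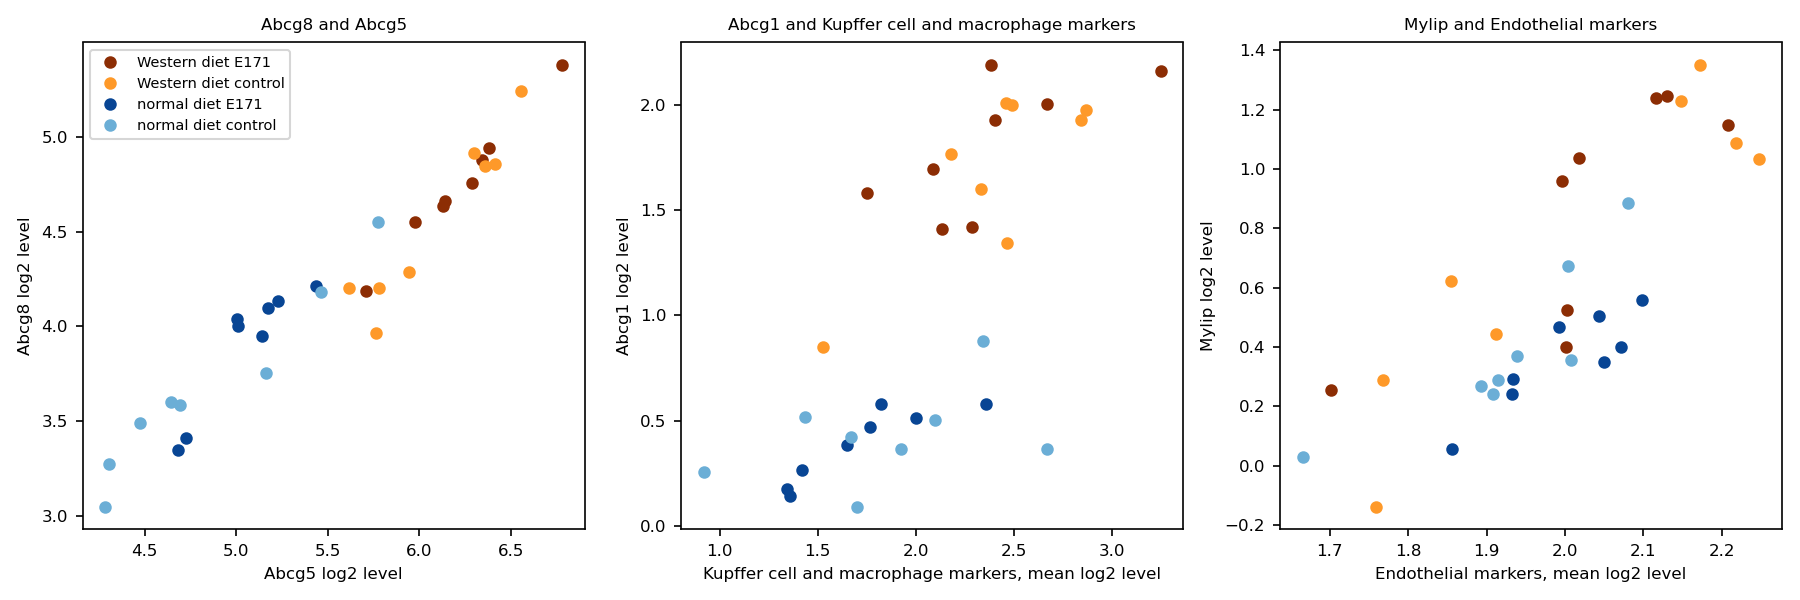
Log2 levels in single mice of Abcg8 against Abcg5, of Abcg1 against the mean of 15 Kupffer cell and macrophage markers, and of Mylip against the mean of 10 endothelial markers. The 32 mice follow 1 band for Abcg5 and Abcg8. The Kupffer cell and macrophage means were 1.53 to 2.87 in Western-diet controls against 0.92 to 2.67 in normal-diet controls. The means of the lipid-associated macrophage markers, not drawn here, were 0.82 to 3.07 against -0.60 to 0.19 in the same groups. The part of either list in the Abcg1 level was not tested.

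By the rule of highest correlation over the 32 mice, the named genes most like Abcg1 were Serpinb6c (r 0.92), Serpinb6a (0.911) and Pdlim4 (0.901). Those most like Mylip were F8 (0.922), Adgrl4 (0.895) and Cyp4b1 (0.885), and after Abcg8 those most like Abcg5 were Gabarapl1 (0.773) and Inmt (0.764), with Gabarapl1 (0.844) and Smg6 (0.832) next for Abcg8. For Nr1h3 they were Plcd4 (0.887), F9 (0.88) and Apc2 (0.876), for Lcat Slc9a3r1 (0.886), Acsm1 (0.885) and Cyp4f17 (0.875), and for Abca1 Cyp2c70 (0.849), Synj2bp (0.842) and Swt1 (0.842). For Lpcat3 they were Ppp1r3g (0.832), Xpa (0.828) and D130043K22Rik (0.823), for Nr1h2 they included Trpc4ap (0.814) and Spns1 (0.812), and for Pltp Eva1b (0.735), Nsdhl (0.733) and Fads2 (0.732).

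Partners and other targets of the receptors did not move as 1 group in controls. Of 14 partners and coregulators 0 were higher and 4 lower on the Western diet, where 28.7% of all genes were lower, with Nr0b2, the corepressor SHP (-0.64), Rxra, the main heterodimer partner (-0.26), and Gps2, a corepressor subunit (-0.22). The count of lower calls was 2 with quantile normalization, where Rxra gave -0.04, and 1 with the deposited table, where Gps2 (-0.16, adjusted p = 0.0701) and Rxra did not pass. Of 19 other LXR targets 8 were higher and 4 lower (8 and 2 in E171 mice). Among all genes 18.5% were higher and 28.7% lower in controls, and 22.2% and 31% in E171 mice. Higher were Scd2, a fatty acid desaturase (2.48), Lpl, lipoprotein lipase (1.91), and Cd5l, a secreted protein of macrophages (1.11). Lower were Mlxipl, the carbohydrate-response factor ChREBP (-0.62), Ppp1r3e (-0.35) and Arl4c (-0.24). With the deposited table only 2 were lower, Arl4c did not pass (-0.16, adjusted p = 0.0891), and Apoe (-0.23), the other of the 4, turned to 0.08, as it turned to 0.04 with quantile normalization. Srebf1, the lipogenic factor downstream of LXRα, rose by 0.62 (adjusted p = 0.0241 in limma), and Cyp7a1, a target in mouse liver that begins bile acid synthesis, gave -0.80 (adjusted p = 0.293); both were chosen after their values were seen.

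Enzymes that make or remove oxysterols, the ligands of the receptors, went both ways, with 4 of 14 higher and 8 lower in controls. Among all genes in controls 18.5% were higher and 28.7% lower. Ch25h, which makes 25-hydroxycholesterol and is active in macrophages, rose (2.30), as did Sult2b1, a sterol sulfotransferase (1.16, but 0.19 with adjusted p = 0.125 with normexp), and Cyp3a11, a steroid hydroxylase (0.98). Cyp7b1, which removes oxysterols, fell (-2.29), as did Hsd11b1 (-1.03) and Dhcr7 (-0.95). Of 17 genes of SREBP2 and cholesterol synthesis 1, Insig2 (0.58), was higher and 16 were lower, with Sqle (-2.58), Idi1 (-1.92) and Mvd (-1.79). Hmgcs1 (-0.76) and Sc5d (-0.46) stayed negative but lost their calls with quantile normalization (-0.58 and -0.24) and with the deposited table (-0.54 and -0.24). Among 14 genes of storage and trafficking 3 rose and 3 fell, with Soat1, which esterifies cholesterol in macrophages (1.05), and Stard4, a carrier (-1.12), while 6 rose with the deposited table.

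Genes that work beside the exporters and beside Mylip, Lpcat3 and Lcat were also mixed. For each of these lists, 18.5% of all genes were higher and 28.7% lower in the same comparison. In the uptake list with the targets of Mylip, 3 of 8 were higher and 4 lower, with the scavenger receptors Cd36 (2.93) and Msr1 (0.81) and the Mylip target Vldlr (1.56) higher and Lrp8 (-0.56) lower. With each of 3 other scalings 2 of the list were lower. Of 11 HDL genes 2 were higher, Apoa4 (2.82) and Pcsk6 (0.42), and 6 lower, with Apom (-1.49), Bmp1 (-0.72) and Lipc (-0.66). Among the lower, Apoa2 (-0.23) and Apoc3 (-0.29) lost their calls with the sign turned under 2 scalings. They gave 0.05 and 0.01 with quantile normalization, and 0.08 and 0.01 with the deposited table. Of 9 other ABCA genes 2 rose, Abca5 (0.64) and Abca9 (0.54), and 4 fell, with Abca8a (-1.64) and Abca2 (-0.91), and 2 fell with the deposited table. Of 14 other ABC transporters 9 rose, led by Abcb1a (1.69), Abcb1b (1.36) and Abcg3 (1.19), and 2 fell, Abcb11, the bile salt pump (-0.66), and Abcc6 (-0.34). Of 10 phospholipid genes 3 rose, with Lpcat2 at 1.33, and 4 fell, with Pemt at -0.46. The fallen numbered 2 with quantile normalization and 1 with the deposited table, and Agpat2 (-0.20) turned to 0.03 under both.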

How the data were processed

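The 10 genes and all lists were chosen with earlier results of these data known. Liver RNA of 32 mice was hybridised to one-colour arrays, and the deposited scanner files hold Cy3 intensity values of 62976 spots, background-corrected by Agilent Feature Extraction 10.10.1.1 per the file headers and the submitters' processing notes. A deposited set of log2 values covers 36695 probes; its columns have the same mean within a group but not between groups, and the sources used here do not say how it was normalized. It was run as an alternative. Probe positions are those of the deposited scanner files (mm9).

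Outlier spots (42 to 91 per array) were dropped, replicate spots averaged, and log2 of the processed intensity was scaled to the 75th percentile of each array. Probes well above background on at least 6 of 8 arrays of 1 group were kept (35777 probes), and the brightest probe stood for a gene. limma 3.58.1 in R 4.3.3 (with the data.table package, version 1.17.8) was fitted with 1 mean per group, after being tested on simulated data. Named genes were the 10 genes with all their probes, at most 3 per direction of each list past the threshold in controls, and the 3 most correlated genes; Clec4f, Timd4, Alb, Srebf1 and Cyp7a1 were chosen after their values were seen. Some genes that this rule names are not reported here. Each member was recomputed under 9 planned settings. The number of arrays limits precision.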

Additional observations from a re-analysis of the deposited data

Results flagged for a closer look

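Nr1h2 was lowest in Western-diet control mouse 3, at a log2 level of 3.69, with the next mouse of its group at 3.89. The gap is 0.635 of the range of the group, above Dixon's limit of 0.526 for 8 samples. It was the only one of 40 groups (10 genes in 4 groups) in which a mouse stood apart in this way, and chance gives about 1 in 20.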

How the results depend on the processing

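The number of genes called in controls was 5 to 8 over all alternatives, 5 with quantile normalization, 6 with the deposited table and 8 without Western-diet control mouse 5 (chosen after seeing the data), against 7; in E171 mice it was 7 or 8. It stayed 0 for E171 on each diet, for its mean and for the interaction. The labels do not say that a replicate number marks anything shared, so the mice were not taken as paired. The median correlation was higher over 48 same-numbered pairs, 0.069 with 23 of them over 0.1. Over 336 other pairs it was -0.0186, with 74 of them over 0.1. Of 32 mice 8 were closest to their own number. Whether the numbers mark anything shared was not tested. The replicate block left the count at 7 in controls and 8 in E171 mice. Of all 11189 calls in controls 4386 were higher, and the share was 31.2% with normexp, 45.4% with quantile normalization and 54.5% with the deposited table. Over all genes, 90 calls for E171 on the Western diet (0.38% of genes) became 0.723% of genes with the replicate block, and the count was 60 with no filter on dim probes and 38 with only the groups compared, and 87 for its mean became 149 with the block and 43 with no filter. The control difference of Lcat was -0.36 with quantile normalization.

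Among the 10 genes, and apart from single slides, signs turned only in differences that had not passed. For the diet in E171 mice, Pltp gave 0.0201 with normexp, 0.069 with quantile normalization and 0.0911 with the deposited table, and Abca1 0.013 and 0.0546 with the last 2. For E171 on the normal diet, Pltp gave 0.00761 with quantile normalization, and the mean of all probes gave 0.0413 for Nr1h2 and 0.0123 for Nr1h3; averaged over diets it gave 0.0304 for Abca1. Without normal-diet control mouse 7, E171 on the normal diet gave 0.0284 for Abcg1, 0.0211 for Lpcat3, 0.0408 for Mylip and 0.0014 for Nr1h3. Without Western-diet control mouse 5, E171 on the Western diet gave -0.00479 for Abcg1, -0.0138 for Mylip and 0.00995 for Nr1h3, the mean over diets -0.0207 for Abcg1, 0.00779 for Lcat, -0.0218 for Mylip and 0.0027 for Nr1h3, and the interaction 0.0673 for Abcg8 and 0.0145 for Nr1h3. Without normal-diet control mouse 7 the mean over diets was 0.0716 for Abcg1, -0.0271 for Lcat, 0.0763 for Mylip and -0.014 for Nr1h3, and the interaction -0.154 for Abcg8 and -0.0309 for Nr1h3. The cause was not tested.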
